A study of Mus musculus with 12 samples.

Results

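Small RNA counts of extracellular vesicles, membrane particles that cells shed into the medium, were compared between the libraries titled PLL and those titled NY. These 6 libraries, 3 in each group and chosen by title alone, belong to a series of 12 whose other libraries are titled DZ and aFM. The vesicles came from cultured mesenchymal stem cells, the stromal cells of marrow that can form bone, cartilage and fat, taken from C57BL/6 mice of specific-pathogen-free grade. Every library carries the same treatment label, antigen intervention. The design text names 3 stimulants, ESPs, HCF and pLL, each given at 2 µg/ml over 48 h before vesicles were collected by ultracentrifugation. That text names a small RNA kit, whereas the extraction text speaks of mRNA libraries, and the sources used here do not settle the difference. PLL bears the name of pLL. The labels do not say what NY stands for, so the comparison is reported by title. The sources used here do not give the age or sex of the mice, or whether the libraries of a group came from separate cultures, so the p-values speak to the variation among these libraries and no further, and that variation may be technical.

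A mature miRNA is about as long as the sequences printed below and guides the Argonaute protein to messenger RNAs. Most of its pairing with a target runs through the seed, here bases 2 to 8 counted from the 5′ end, so miRNAs that share a seed have overlapping targets. A hairpin precursor gives a 5p and a 3p arm, of which one usually accumulates. Vesicles carry miRNAs out of the cell, and their content reflects both what the cell makes and what it loads.

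The test between PLL and NY was passed by 9 miRNAs. RefSeq holds the mature sequence of 8 of these 9, on mouse build GRCm38.p6, and they are shown because the results turn on them, with the seed in capitals and the higher ones in PLL first. let-7b-5p and let-7c-5p share a seed, and no other seed occurs more than once among the 8.
miR-9-5p: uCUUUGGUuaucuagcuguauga
miR-1895: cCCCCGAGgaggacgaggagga
miR-126a-3p: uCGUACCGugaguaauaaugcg
miR-146b-5p: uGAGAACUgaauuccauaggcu
let-7b-5p: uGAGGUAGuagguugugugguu
let-7c-5p: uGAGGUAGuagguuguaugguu
miR-615-3p: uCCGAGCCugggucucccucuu
miR-206-3p: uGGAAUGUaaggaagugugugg
The remaining one is miR-143-3p.

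The NY libraries held 28257 to 35114 counts under mouse miRNA names and the PLL libraries 28592 to 60436, and levels are given as CPM, the count scaled to a fixed total of these, scaled by TMM. Annotated miRNAs took 21.7%, 30.6% and 18.6% of all counts in NY libraries A, B and C and 60.7%, 29.2% and 41.7% in PLL libraries A, B and C, the rest being predicted loci. The groups overlapped (exact permutation test, two-sided p = 0.2, where 3 against 3 can give no less than 0.1). Where a library shows 0, counting error alone leaves room for 3 counts, which is 67.9 to 99.8 CPM in these 6 libraries. PLL library A stood apart from PLL libraries B and C, as described further on, and the 9 calls are given with and without it. Of miRNAs common in mesenchymal cells, miR-21a-5p, miR-143-3p and miR-22-3p stood at 6295 CPM or more in every NY and PLL library. Over the same libraries miR-199a-3p ran from 4550 to 19338 CPM and miR-199a-5p from 1064 to 3985 CPM. Low members were miR-214-3p, at 155 to 668 CPM, and miR-145a-5p, at 0 to 327 CPM. The epithelial list summed to 559 to 829 CPM in NY and 541 to 906 CPM in PLL. The erythroid list, with rows of identical counts taken once, summed to 64052 to 130336 CPM in NY and 47282 to 67939 CPM in PLL. Leukocyte miRNAs summed to 2162 to 3613 CPM in NY and 2197 to 3943 CPM in PLL.

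Of 1978 annotated entries, 435 had a count in some PLL or NY library and 132 passed the filter on low counts and were tested. Of these 132, 9 differed at an adjusted p under 0.05 (percent called 6.82), 4 higher in PLL (3.03%) and 5 lower (3.79%), and 28 had an unadjusted p under 0.05. The higher ones were miR-9-5p, miR-1895, miR-126a-3p and miR-146b-5p, and the lower ones miR-206-3p, miR-143-3p, miR-615-3p and a pair from the let-7 family, let-7b-5p and let-7c-5p. The median log2 fold change over all 132 was 0.17, with 76 positive and 56 negative. Library ranges of PLL and NY did not overlap for 22 miRNAs with PLL above (16.7%) and 20 with PLL below (15.2%), which include all 9 called ones.

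**Figure D1:**
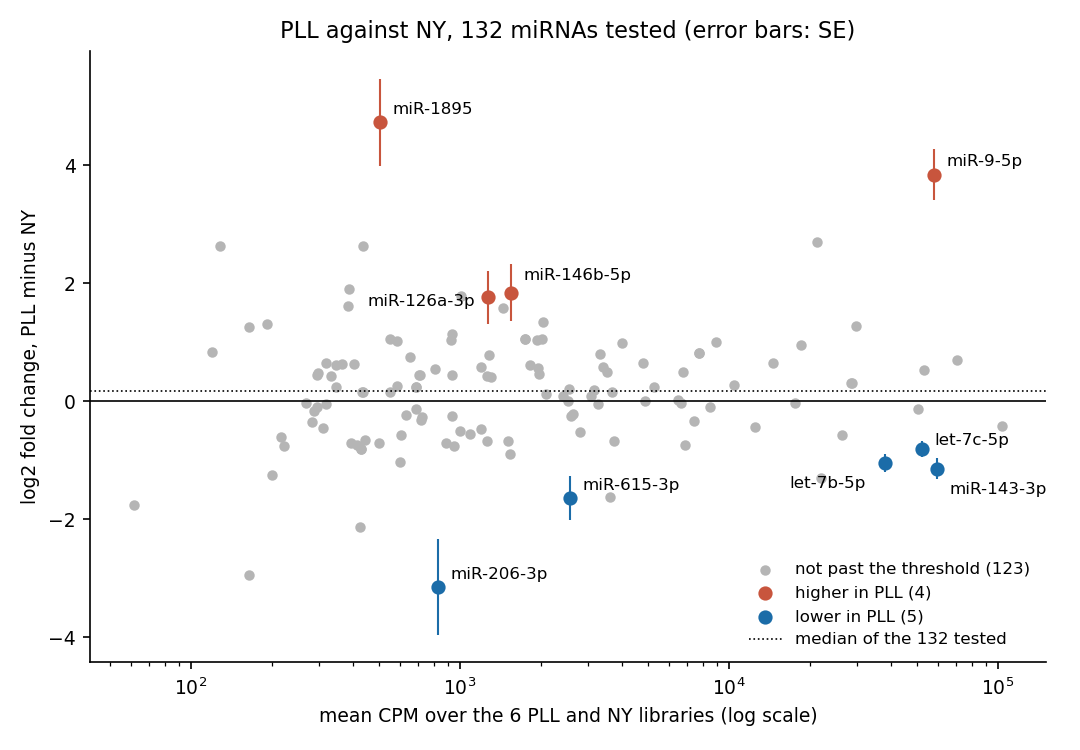
Log2 fold change, PLL minus NY, against mean CPM over the 6 libraries (log scale) for the 132 tested miRNAs, with SE bars on the 9 called ones and a dotted line at the median of 0.17. miR-9-5p is both among the most abundant and among the most changed, whereas miR-1895 lies near 500 CPM.

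miR-9-5p, best known from neural progenitors and also induced through NF-κB in inflammatory signalling, showed the change at the highest level among the higher miRNAs. It stood at 7127, 7168 and 8214 CPM in the NY libraries and at 85597, 113851 and 123700 CPM in the PLL libraries. All PLL libraries lay above all NY libraries, and the lowest PLL library was library A. The means of 7503 ± 616 and 107716 ± 19778 CPM (SD, n = 3) differed by a log2 fold change of 3.84 ± 0.44 (SE; adjusted p = 0.000189). Without PLL library A the value was 3.99 (adjusted p = 1.81e-05). Both the other groups lay outside the NY range, DZ at 37.9 to 512 CPM and aFM at 29976 to 35663 CPM. The mature sequence is encoded 3 times, in Mir9-1 (chr3:88215613-88215635, in an intron of the long noncoding RNA gene Gm3764), Mir9-2 (chr13:83738821-83738843, in an exon of C130071C03Rik) and Mir9-3 (chr7:79505279-79505301, in an intron of Mir9-3hg), so its counts cannot be assigned to one gene. The opposite arm, miR-9-3p, had 2 counts in NY and 0 in PLL, against 693 and 12201 counts of miR-9-5p. The neural miRNA miR-128-3p, at 2514 to 3116 CPM in NY and 2260 to 2609 CPM in PLL, did not pass (-0.21, adjusted p = 0.588), and miR-124-3p, the defining miRNA of neurons, had 2 counts in NY and 10 in PLL and was not tested.

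miR-1895 had 1, 0 and 2 counts in NY libraries A, B and C, together 3, and 113 in PLL, a ratio of 30.2 (95% counting interval 10.1 to 149). That interval pools the libraries of each group and leaves out the spread between them, so it is too narrow. In PLL miR-1895 stood at 815, 1281 and 827 CPM and in NY at 33.1, 0 and 66.5 CPM, so the groups were far apart. The fitted log2 fold change of 4.73 ± 0.74 (adjusted p = 0.00119) depends on a prior count at such low numbers. It passed the filter on low counts only through the PLL libraries, where it is high. At its levels in the other groups it was tested only because PLL was high, so its p supports nothing further. DZ (114 to 244 CPM) and aFM (90.7 to 380 CPM) lay between the groups. Its locus, chr3:134240515-134240536 on the minus strand, lies in an exon of the antisense transcript gene Gm26691 and opposite an exon of Cxxc4. With 72.7% G and C it ranked 3 of the 109 tested miRNAs that have a RefSeq sequence, whose median was 47.8%.

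miR-126a-3p is made from within Egfl7 (chr2:26591402-26591423, plus strand) and marks endothelial cells. It stood at 365, 497 and 865 CPM in NY and 1698, 1909 and 2291 CPM in PLL, without overlap (log2 fold change 1.76 ± 0.45, adjusted p = 0.0356). The aFM libraries were higher still, at 4593 to 5110 CPM. Its other arm, miR-126a-5p, had 0 counts in NY and 1 in PLL, so the endothelial list rests on 1 tested member. The call was lost without NY library A or B, PLL library B or C, or any aFM library, with adjusted p of 0.0524 to 0.189, and in the fit restricted to the 6 libraries without (adjusted p = 0.0701) and with (adjusted p = 0.115) the library letter as a replicate block.

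miR-146b-5p, which restrains NF-κB signalling by targeting its adaptor proteins, stood at 398, 714 and 898 CPM in NY and 2695, 1281 and 3277 CPM in PLL. The groups did not overlap, but PLL library B lay closest to NY (log2 fold change 1.84 ± 0.49, adjusted p = 0.0404). Its locus is chr19:46342790-46342811 on the plus strand, in an intron of Mfsd13a. The paralog miR-146a-5p, of the same seed, stood at 961, 714 and 1131 CPM in NY and 1381, 1356 and 2132 CPM in PLL and did not pass (0.79 ± 0.48, adjusted p = 0.315). The pair is printed with the differing bases in capitals, since reads of one can be counted under the other.
miR-146a-5p: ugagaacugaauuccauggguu
miR-146b-5p: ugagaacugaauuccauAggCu
Both differences, G18A and U21C, counted from 1 at the 5′ end with the base of miR-146a-5p first, lie in the 3′ part. The miR-146b-5p call was lost without any NY library, any aFM library, or PLL library A or C, with adjusted p of 0.0524 to 0.204, and in the fit restricted to the 6 libraries (adjusted p = 0.082). It was also lost with a replicate block, in 12 libraries (adjusted p = 0.0691) and in the 6 (adjusted p = 0.144). In the NF-κB and inflammation list, 2 of 5 tested members were higher, miR-9-5p and miR-146b-5p, and 0 lower. Over all tested, 3.03% were higher and 3.79% lower. The list was chosen with earlier results of these data known, so this count only describes. Its median log2 fold change was 0.79 against 0.17 over all tested. Its members miR-125a-5p (-0.68, adjusted p = 0.208) and miR-125b-5p (0.014, adjusted p = 0.982) did not pass. The members detected but not tested were miR-155-5p, induced in activated leukocytes, with 13 counts in NY and 23 in PLL, miR-132-3p with 14 and 4, and miR-223-3p with 7 and 40.

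**Figure D2:**
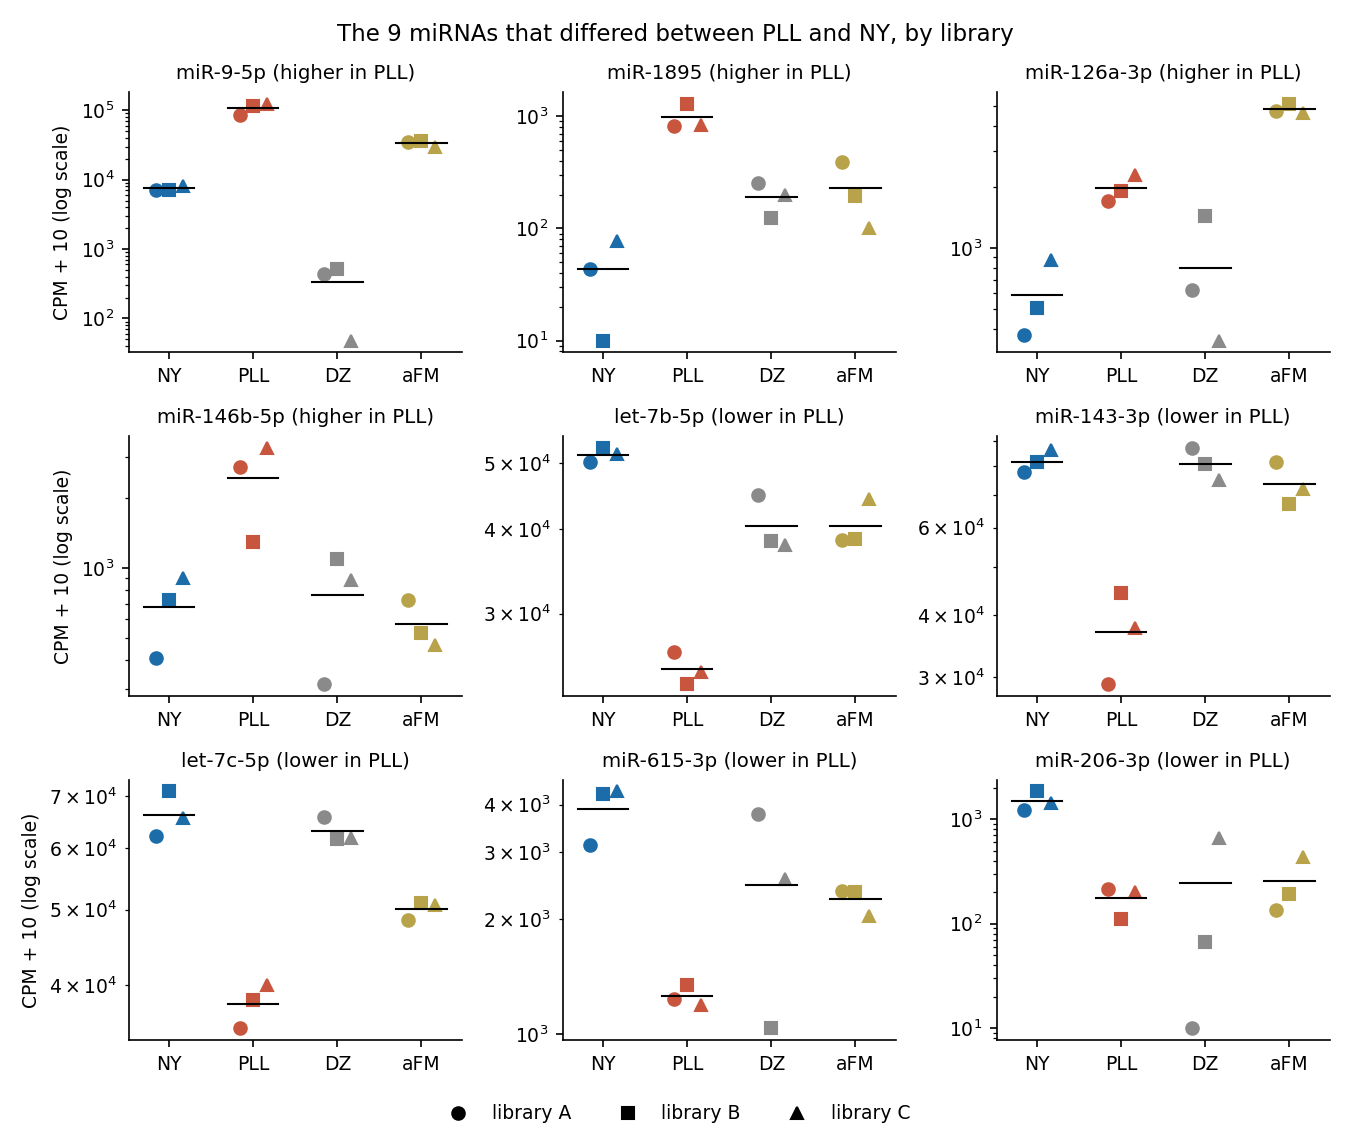
Level of each of the 9 called miRNAs in every library as CPM + 10 on a log scale, with the mean of each group as a line and DZ and aFM beside NY and PLL for reference. In each panel the 3 PLL libraries lie on one side of the 3 NY libraries; PLL is above all other groups for miR-9-5p, miR-1895 and miR-146b-5p, and below all of them for miR-143-3p and for both let-7 members.

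Of the lower miRNAs, miR-143-3p, which acts in smooth muscle and mesenchymal cells, was the most abundant. It stood at 77568, 81274 and 85968 CPM in NY and 28940, 44254 and 37543 CPM in PLL, with no overlap (log2 fold change -1.14 ± 0.17, adjusted p = 0.00119). DZ (74835 to 87066 CPM) and aFM (66951 to 81347 CPM) lay close to NY. Its opposite arm miR-143-5p had 0 counts in NY and 8 in PLL. miR-145a, made from the same cluster, did not pass on either arm. miR-145a-3p stood at 895, 1179 and 1230 CPM in NY and 498, 980 and 541 CPM in PLL (-0.71 ± 0.35, adjusted p = 0.278), while miR-145a-5p, with 10 counts in NY and 31 in PLL, had 1.31 (adjusted p = 0.405). The smooth muscle list thus had 1 of 3 tested members lower, against 3.79% over all tested.

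miR-615-3p is encoded in an intron of Hoxc5 (chr15:103014969-103014990, plus strand), a homeobox gene of body patterning. It stood at 3116, 4251 and 4323 CPM in NY and 1223, 1331 and 1177 CPM in PLL, and the PLL libraries were tightly grouped (log2 fold change -1.64 ± 0.38, adjusted p = 0.0206). Its DZ libraries spread from 1024 to 3780 CPM. The call was lost without NY library B or C (adjusted p = 0.0662 and 0.0664). The opposite arm miR-615-5p had 0 counts in NY and 2 in PLL. Of the 5 tested miRNAs of Hox clusters, 1 was lower and 0 higher, against 3.79% and 3.03% over all tested. The median of these Hox cluster members was -0.50. miR-196a-5p, from another part of these clusters, stood at 1260, 1117 and 1131 CPM in NY against 770, 628 and 1082 in PLL, below NY in every library but not past the threshold (-0.50, adjusted p = 0.342), and miR-10a-5p and miR-10b-5p had 0.21 and 0.65 (adjusted p = 0.638 and 0.501).

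miR-206-3p is a skeletal muscle miRNA induced during myogenic differentiation, and its forced expression restrains osteoblast formation. It stood at 1227, 1831 and 1430 CPM in NY and 204, 100 and 191 CPM in PLL, with 139 and 19 counts (log2 fold change -3.15 ± 0.81, adjusted p = 0.0356). NY also lay above DZ (0 to 644 CPM) and aFM (127 to 423 CPM). The call was lost without any of the 6 NY and PLL libraries, with adjusted p of 0.0552 to 0.121, and the log2 fold change then ran from -3.38 to -3.00. It passed the filter on low counts only through the NY libraries, where it is high, so, as for miR-1895, its p supports nothing further. Its locus, chr1:20679055-20679076 on the plus strand, lies in an exon of the long noncoding RNA gene Gm28653, 3779 bases upstream of miR-133b-3p. The other muscle miRNAs were sparse. miR-1a-3p had 46 counts in NY and 23 in PLL, miR-133a-3p 9 and 2, miR-133b-3p 4 and 1, and the slow-muscle miR-499-5p 11 and 0, none of them tested. miR-378a-3p, which is also made in other tissues, had -0.76 on the log2 scale (adjusted p = 0.31). So 1 of 2 tested muscle members was lower, against 3.79% over all tested, and that 1 is miR-206-3p, which was tested only because NY was high. The summed level of the muscle list ran from 2827 to 4282 CPM in NY and 980 to 1177 CPM in PLL. That sum includes miR-206-3p, so it is no separate support. miR-378a-3p, also in the sum, overlapped between groups, at 599 to 1645 CPM in NY and 543 to 891 CPM in PLL.

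The let-7 family, abundant in differentiated cells and known for silencing growth regulators such as Lin28 and Hmga2, had 2 of 9 tested members lower in PLL and 0 higher. Over all tested, 3.79% were lower and 3.03% higher. let-7b-5p stood at 50188, 52755 and 51581 CPM in NY and 26268, 23559 and 24594 CPM in PLL, a log2 fold change of -1.05 ± 0.15 with adjusted p = 0.00101. Levels of let-7c-5p stood at 62187, 70940 and 65515 CPM in NY and 35167, 38201 and 39992 CPM in PLL (-0.81 ± 0.14, adjusted p = 0.00197). In both, the groups were well separated and libraries of a group lay close together. The other 7 tested members of the same seed did not pass. let-7a-5p (0.32 ± 0.19, adjusted p = 0.315), let-7f-5p (0.30 ± 0.19, adjusted p = 0.327) and let-7d-5p (0.24 ± 0.21, adjusted p = 0.466) had positive values. let-7g-5p stood at 6166, 5524 and 6119 CPM in NY and 20924, 7912 and 6936 CPM in PLL (1.01 ± 0.36, adjusted p = 0.118), where PLL library A was far above the other PLL libraries. let-7i-5p (-0.14), let-7e-5p (-0.53) and miR-98-5p (0.25) had adjusted p of 0.619, 0.308 and 0.815. Over the 9 members the median was 0.24, and -0.25 without PLL library A. The guide strands are printed because they differ by few bases, with capitals where the base differs from let-7a-5p.
let-7a-5p: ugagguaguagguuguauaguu
let-7b-5p: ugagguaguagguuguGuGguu
let-7c-5p: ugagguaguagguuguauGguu
let-7d-5p: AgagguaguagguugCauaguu
let-7e-5p: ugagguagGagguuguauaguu
let-7f-5p: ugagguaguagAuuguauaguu
let-7g-5p: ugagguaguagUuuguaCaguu
let-7i-5p: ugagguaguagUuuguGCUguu
Of those printed, let-7b-5p and let-7c-5p carry A19G, and let-7b-5p adds A17G, with positions from 1 at the 5′ end and the base of let-7a-5p first. With 1 to 4 differences from let-7a-5p, reads can be divided among members by the counting. Because they have the same seed, their sum was also taken. It was 226341, 245031 and 236419 CPM in the NY libraries and 228529, 175360 and 178200 CPM in PLL. let-7b-5p and let-7c-5p made up 49.7%, 50.5% and 49.5% of that sum in NY, 26.9%, 35.2% and 36.2% in PLL, 43.2% to 49.2% in DZ and 39.6% to 42.6% in aFM. This share does not depend on how libraries are scaled. The 2 members were taken because they were called, so their lower share is no separate support. The other members summed to 167095 CPM in PLL library A, 113600 and 113614 CPM in B and C, and 113966 to 121337 CPM in NY.

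**Figure D3:**
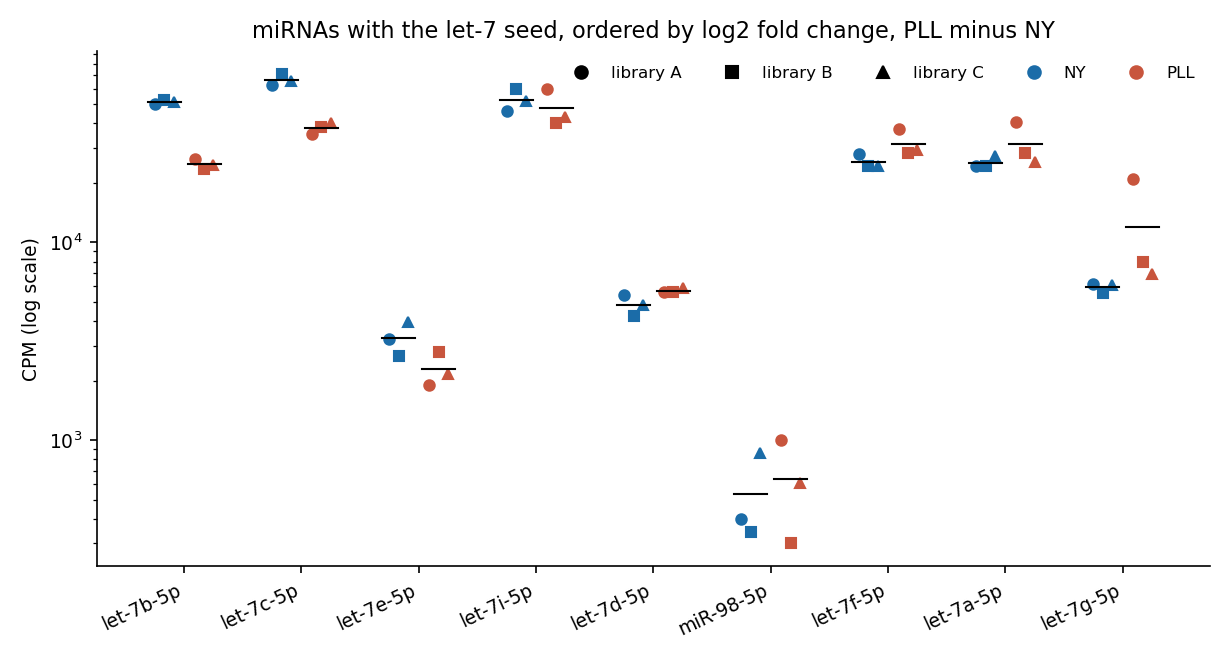
CPM (log scale) of the 9 tested miRNAs with the let-7 seed in each NY and PLL library, with group means as lines, ordered by log2 fold change. let-7b-5p and let-7c-5p are lower in every PLL library, while let-7g-5p is highest in PLL library A.

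let-7b and a copy of let-7c lie 709 bases apart on the plus strand of chromosome 15 (chr15:85707325-85707346 and chr15:85706616-85706637), within exons of the noncoding RNA gene Lncppara. A further copy of let-7c lies at chr16:77599672-77599693 in an intron of Mir99ahg, 732 bases downstream of miR-99a. miR-99a-5p had the opposite sign to let-7c-5p only through PLL library A. It stood at 16939, 16913 and 18258 CPM in NY and 94994, 16250 and 15335 CPM in PLL (log2 fold change 1.28, adjusted p = 0.201). Without PLL library A its log2 fold change was -0.13, and that of let-7c-5p was -0.75. The 3p arm of the chromosome 15 copy, let-7c-2-3p, did not pass (log2 fold change 0.24 ± 0.40, adjusted p = 0.682) at 465 to 732 CPM in NY and 678 to 859 CPM in PLL, and its row is not separable from the identical row of let-7a-1-3p. A different cluster, within Spaca6 on chromosome 17, holds miR-99b, let-7e and miR-125a inside 647 bases. miR-99b-5p stood at 9050, 8627 and 7982 CPM in NY and 4778, 4998 and 5568 CPM in PLL, which do not overlap (-0.74 ± 0.23, adjusted p = 0.0773), and it passed in the fit restricted to the 6 libraries (-0.97, adjusted p = 0.035). miR-125a-5p (-0.68 ± 0.30, adjusted p = 0.208) did not overlap between groups either and did not pass, and let-7e-5p had -0.53 ± 0.28. The guide strands of the miR-99 family are printed with capitals where they differ from miR-99a-5p, since miR-99b-5p and miR-99a-5p lay on opposite sides of NY in PLL library A.
miR-99a-5p: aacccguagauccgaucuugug
miR-99b-5p: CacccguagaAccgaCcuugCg
miR-100-5p: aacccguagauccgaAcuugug

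Among the miRNAs next by p after the called ones, several had groups that did not overlap, as did 31.8% of all tested. miR-676-3p, from an intron of Eda, stood at 431, 124 and 333 CPM in NY and 67.9, 0 and 31.8 CPM in PLL (log2 fold change -2.96 ± 0.84, adjusted p = 0.0584), with 27 and 4 counts. Its other arm, miR-676-5p, had 7 counts in NY and 0 in PLL. miR-676-3p passed with RLE factors (adjusted p = 0.0474), with library totals (adjusted p = 0.0424) and in DESeq2 (adjusted p = 0.0495). It also passed with identical rows merged (adjusted p = 0.0484), but not with a minimum count of 5 (0.0557) or without PLL library A (0.0745). miR-125b-1-3p, the passenger arm of a miR-125b gene, stood at 1591 to 2295 CPM in NY and 974 to 1180 CPM in PLL (-0.90 ± 0.28, adjusted p = 0.0818), whereas the guide arm miR-125b-5p, which a further gene also encodes, had 0.014. Without PLL library A the passenger arm had -0.83 and the guide arm -0.56, neither past the threshold. miR-3960, reported to favour osteoblast differentiation, stood at 630, 776 and 665 CPM in NY and 0, 201 and 286 CPM in PLL (-2.13 ± 0.73, adjusted p = 0.107). miR-21a-5p, abundant in stromal cells, stood at 120198, 130150 and 105855 CPM in NY and 82087, 85319 and 98247 CPM in PLL (-0.42 ± 0.16, adjusted p = 0.148). On the other side, miR-3473b stood at 33.1, 248 and 200 CPM in NY and 453, 980 and 414 CPM in PLL (1.91 ± 0.65, adjusted p = 0.107), and passed the filter only through PLL. miR-148b-3p (1.58), miR-23a-3p (1.34), miR-26b-5p (1.04) and miR-101a-3p (1.05, identical to the row of miR-101c) were led by PLL library A and had adjusted p of 0.0977 to 0.148.

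The lists of related miRNAs are set beside the 6.82% called among all tested. Of 6 tested members of the osteogenesis-promoting list 0 were called, with a median of -0.17. Of 10 in the osteogenesis-restraining list 1 was lower, miR-206-3p, which the filter kept only through NY. The restraining list had a median of 0.0071 (-0.20 without PLL library A). The mesenchymal and cartilage list had 0 of 10 called, 8 with positive and 2 with negative values, and a median of 0.82. The 10 rows are 9 measurements, since miR-199a-3p and miR-199b-3p share their counts. Without PLL library A, 2 values were positive and 8 negative, and the median was -0.12, against 0.038 over all tested. All 5 tested erythroid rows, which are 3 measurements because miR-486a and miR-486b share their counts, had negative values and none passed. miR-486a-5p stood at 59867, 93035 and 46692 CPM in NY and 28192, 44280 and 41520 CPM in PLL (-0.81 ± 0.32, adjusted p = 0.155), and miR-451a had -0.57 (adjusted p = 0.45). The leukocyte member tested, miR-142a-5p, had -0.24 (adjusted p = 0.57), and the epithelial one, miR-200b-3p, 1.26 (adjusted p = 0.327). miR-122-5p, the liver miRNA, stood at 2586, 2421 and 3060 CPM in NY and 4167, 3943 and 7827 CPM in PLL (0.98, adjusted p = 0.442), and miR-192-5p had 0.42 (adjusted p = 0.622). The lists of the Dlk1-Dio3 cluster (5 tested, median 0.44), the miR-23, miR-27 and miR-24 clusters (6 tested, median 0.53), the miR-99 and miR-125 families (5 tested, median 0.014) and the miR-17-92 paralogs (2 tested, median -0.18) had 0 called. Without PLL library A these medians were -0.22, -0.32, -0.60 and -0.011. Within the latter lists, miR-411-5p of the Dlk1-Dio3 cluster, with 9 counts in NY and 3 in PLL, had -1.75 on the log2 scale (adjusted p = 0.31), miR-381-3p 0.84 (adjusted p = 0.564), miR-24-2-5p -0.66 (adjusted p = 0.418), miR-92a-3p -0.44 (adjusted p = 0.425) and miR-25-3p 0.085 (adjusted p = 0.91).

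Of 303 miRNAs detected in PLL or NY but not tested, some had counts in all 3 libraries of one group and none in the other. All of these lay under the filter on low counts. They were singled out after their counts were seen, and not all of those counted only in PLL are named here. miR-341-3p, from an intron of Rian in the Dlk1-Dio3 region (chr12:109611556-109611576), had 30, 27 and 6 counts in PLL libraries A, B and C and 0 in NY. Set against a floor of 3 counts over the NY group, it was 16.8-fold higher in PLL. Such folds take the counts of the other group as exact, so they are not lower limits. miR-341-3p had 0 counts in DZ and 1 in aFM. miR-339-5p had 13, 12 and 14 counts in PLL and 0 in NY, 10.4-fold higher by the same floor, with 5 counts in DZ and 19 in aFM. miR-374b-5p, identical to the row of miR-374c-5p, had 13, 3 and 3 counts in PLL and 0 in NY, 5.07-fold higher by that floor. The leukocyte miRNA miR-142a-3p had 7, 5 and 5 counts in PLL and 0 in NY, 4.54-fold higher by that floor. Its other arm, miR-142a-5p, had 259 counts in NY and 271 in PLL. In the same leukocyte list, miR-150-5p had 12 counts in NY and 10 in PLL, and miR-223-5p 6 and 13. Another leukocyte miRNA, miR-223-3p, had 2, 5 and 0 counts in NY and 0, 21 and 19 in PLL, so PLL library A had none. In the other direction, miR-499-5p had 3, 5 and 3 counts in NY and 0 in PLL. The epithelial miRNA miR-205-5p had 1, 2 and 8 counts in NY and 0 in PLL. Each was 4.58-fold lower in PLL by a floor of 3 counts over the PLL group. miR-676-5p, with 7 counts in NY, and miR-3473a, with 3, also had 0 in PLL.

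PLL library A differed in composition from PLL libraries B and C. In that library 15 tested miRNAs, 14 measurements, exceeded both other PLL libraries by more than 3-fold with at least 30 counts, against 1 in PLL library B and 0 in each of the other 4 libraries when judged the same way within their group. These miRNAs took 40.4% of the annotated counts of PLL library A, 12.1% and 11.1% in PLL libraries B and C and 11.7% to 13.3% in the NY libraries. The cartilage miRNA miR-140-3p led them, at 99795 CPM against 5400 and 5122 in PLL libraries B and C and 5182 to 6099 in NY, and its opposite arm miR-140-5p stood at 4144 against 176 and 382. Several of the 15 share a seed. miR-148a-3p stood at 174092 CPM against 45058 and 41233, and miR-148b-3p and miR-152-3p, of the same seed, were also in the set. So were miR-99a-5p with miR-100-5p, and miR-27a-3p with miR-27b-3p. For 13 of the 15, PLL libraries B and C lay at or under the highest NY library. None of the 9 called miRNAs was in the set. Without PLL library A, 7 miRNAs were called, all of them among the 9, and those lost were miR-146b-5p and miR-206-3p (adjusted p = 0.0821 and 0.0745). Without it, the log2 fold changes of miR-140-3p, miR-148a-3p, miR-99a-5p and miR-10b-5p were -0.097, -0.30, -0.13 and -0.57. miR-26a-5p, at 41304 to 44811 CPM in NY, stood at 98798 CPM in PLL library A and 39708 and 48583 CPM in the others (0.52, adjusted p = 0.302). What set this library apart was not tested.

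**Figure D4:**
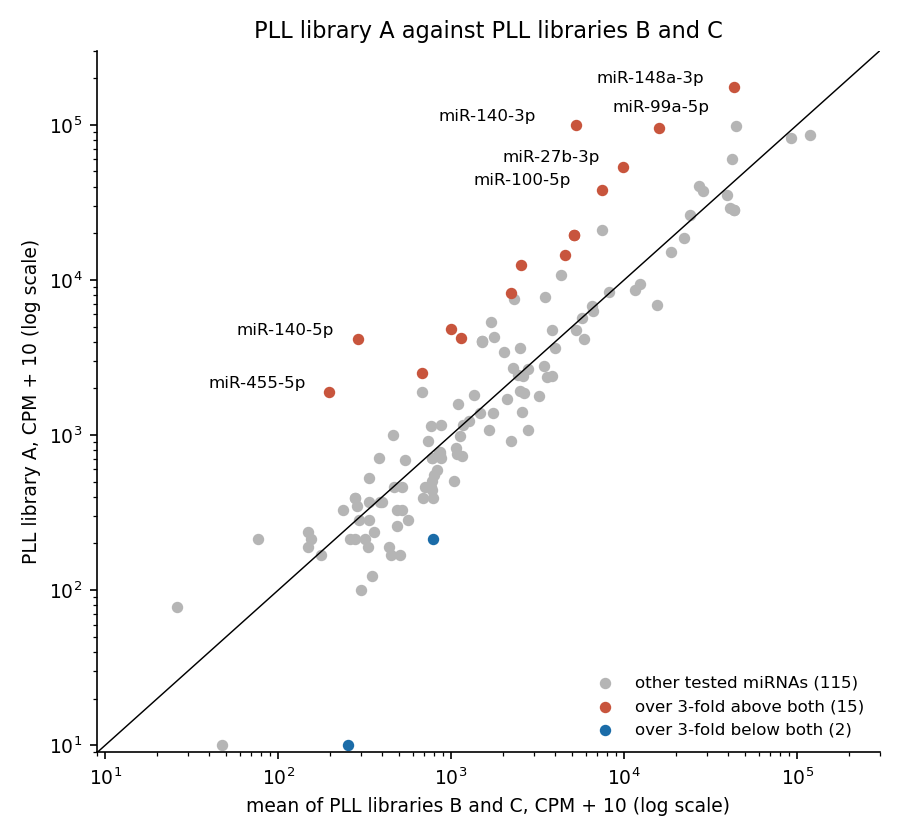
CPM + 10 in PLL library A against the mean of PLL libraries B and C, both on log scales, for the 132 tested miRNAs, with the line of equality. The 15 miRNAs over 3-fold above both other libraries take 40.4% of the annotated counts of library A, and miR-140-3p lies farthest from the line.

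For 3 of the 5 lower miRNAs the sign depends on what the counts are taken relative to. When predicted loci entered the filter, the factors, the dispersions and the adjustment, the median annotated miRNA stood at a log2 fold change of 1.49 in PLL against NY, and 34 of 141 annotated miRNAs were higher and 0 lower. In that fit 14.3% of all 853 rows tested were higher and 11% lower. let-7b-5p then had a log2 fold change of 0.24, let-7c-5p 0.44 and miR-143-3p 0.050, none past the threshold, so these 3 were lower relative to other annotated miRNAs and not relative to all rows. miR-615-3p (-0.41, adjusted p = 0.575) and miR-206-3p (-1.89, adjusted p = 0.238) kept a negative sign without passing. miR-9-5p (5.08), miR-1895 (5.99), miR-146b-5p (3.23) and miR-126a-3p (3.06) were higher and passed. The annotated share of counts was 43.9% ± 15.9 in PLL and 23.7% ± 6.23 in NY (SD, n = 3), with overlap between the groups. Whether this share relates to the difference between the fits was not tested.

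**Figure D5:**
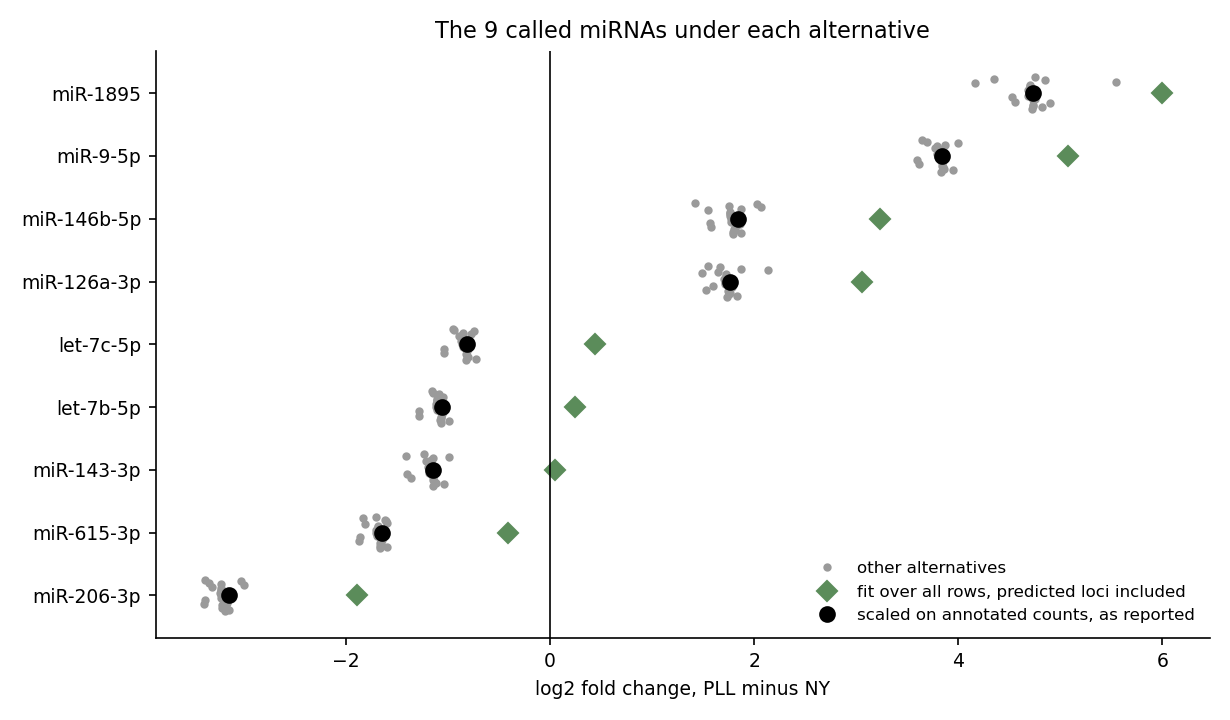
Log2 fold change, PLL minus NY, of the 9 called miRNAs as reported (black), in the fit over all rows (green diamonds) and under the other alternatives (grey). The 4 higher miRNAs stay above 0 in every setting plotted, and miR-143-3p and both let-7 members cross 0 only in the fit over all rows.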

How the data were processed

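Per the file headers, the deposited table had 12 columns of counts named by library; the values were whole numbers per row that the authors had not normalized. Per the submitters' processing notes the build was mm39 and the tools were FastQC, STAR, StringTie and DESeq2, without versions or roles; the miRNA caller is not given in the sources used here. Rows named mmu- (1978 of 3509) were used, and the 1531 predicted loci were left out of library sizes except in the fit over all rows. edgeR 4.0.16 (R 4.3.3) kept 132 rows by filterByExpr (minimum count 10), scaled by TMM and fitted all 12 libraries in 1 quasi-likelihood model with a term per group. PLL minus NY was tested two-sided, adjusted by Benjamini-Hochberg over those 132 rows, threshold 0.05. SE is the fold change divided by the square root of F. The scripts were tested on simulated data. Alternatives were other scalings, filters, libraries, DESeq2 1.42.0 and a replicate block. miRNAs named were all called ones, the 12 next by p, the 10 most abundant, the extremes of each list and opposite arms, and others singled out are said to be so or given as family, cluster or marker members. Members and lists were chosen with earlier results of these data known. Sequences and coordinates are RefSeq's (GRCm38.p6, 109 of 132 matched), with genes from GENCODE M21, not the authors' mm39. Each pair of libraries within PLL and within NY differed by more than sampling noise.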

Additional observations from a re-analysis of the deposited data

How the results depend on the processing

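The count of 9 called miRNAs ran from 7 to 12 under RLE factors, upper quartile factors, library totals, only the PLL and NY libraries, merged identical rows, no miR-9-5p, a minimum count of 5 and both replicate blocks. It was 16 with no filter, where miR-140-3p, miR-199b-5p, miR-5110, miR-341-3p, miR-5119, miR-339-5p, miR-99a-5p and miR-3960 were added and let-7c-5p did not pass (adjusted p = 0.0917), 15 with DESeq2 and 34 in the fit over all rows. Leaving out 1 library gave 5 to 11, the lowest without NY library B. let-7c-5p also missed the threshold with upper quartile factors (adjusted p = 0.0685). miR-9-5p passed in every alternative that held it, as did miR-1895, which the filter kept only through PLL, and let-7b-5p and miR-143-3p in all except the fit over all rows. The fit of the 6 libraries moved the median of all tested from 0.17 to -0.048. The difference in annotated share, 20.2 percentage points, ran from 11.8 to 27.5 when 1 library was left out.

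Replicate letters are shared by the groups, and same-letter deviations of PLL and NY correlated at -0.041, -0.15 and -0.14 for A, B and C. Pairs of different letters ran from -0.12 to 0.25. Such values, from 3 libraries in each group, cannot show whether libraries of the same letter were paired. With the letter as a replicate block 8 miRNAs were called in the fit of 12 libraries and 7 in the fit of the 6. The block ended the call of miR-146b-5p in the fit of 12. In the 6 libraries miR-146b-5p and miR-126a-3p did not pass with or without it.

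In the fit over all rows the log2 fold change changed sign for let-7b-5p (0.24), let-7c-5p (0.44), miR-143-3p (0.050), miR-99b-5p (0.52), miR-125b-1-3p (0.32), miR-21a-5p (0.82), miR-486a-5p and miR-486b-5p (0.29), let-7i-5p (1.19), miR-486a-3p (0.38), miR-451a (0.61), miR-142a-5p (0.91), miR-92a-3p (0.72), miR-24-2-5p (0.50), miR-128-3p (1.09), miR-125a-5p (0.68), miR-378a-3p (0.38), let-7e-5p (0.71), miR-145a-3p (0.41) and miR-196a-5p (0.80). Leaving out 1 library gave -0.097 to 2.99 for miR-140-3p, -0.30 to 0.85 for miR-148a-3p, -0.13 to 1.48 for miR-99a-5p and -0.57 to 0.85 for miR-10b-5p, the negative values without PLL library A. miR-10b-5p was -0.012 with the block in the 6 libraries. miR-25-3p was -0.14 in the fit of the 6 libraries, -0.062 with the block there and -0.23 to 0.54 when 1 library was left out, negative without NY library A or C or PLL library B or C. miR-381-3p ran from -0.00013, without PLL library B, to 1.26, and miR-192-5p was -0.055 without PLL library C. In the fit over all rows 7 to 47 annotated miRNAs and 127 to 158 predicted loci were called when 1 library was left out. The cause was not tested. At 28257 to 60436 annotated counts per library, miRNAs near 100 CPM rest on a few counts.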

Other observations

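The predicted loci, which the table names by chromosome and a number and which carry no gene name, also differed between PLL and NY in the fit over all rows. Of 712 tested, 88 were higher in PLL and 94 lower, with a median log2 fold change of -0.28, while the median over the 141 annotated rows of that fit was 1.49. With RLE factors the split was 85 and 97. Leaving out 1 PLL or NY library gave 127 to 158 called loci, and the annotated rows called ran from 7 without NY library C to 47 without PLL library B. These alternatives were chosen after seeing the data.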
